A study of Mus musculus with 21 samples.

Results

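The melanocyte pigment genes described here are 10 genes of mouse skin, *Tyr*, *Tyrp1*, *Dct*, *Pmel*, *Mlana*, *Slc45a2*, *Oca2*, *Mitf*, *Kit* and *Mc1r*, which were taken by gene symbol from the 55487 genes of the skin table. Bulk RNA sequencing was done on skin of 12-month-old BALB/c mice in 3 groups, named WT for wild-type skin without lesions (3 libraries), NL for nonlesional skin of *Ifnk* TG mice (2 libraries) and L for lesional skin of *Ifnk* TG mice (4 libraries). The *Ifnk* TG mice carry an interferon kappa transgene under the keratin 14 promoter, which is active in basal keratinocytes. The line was made on a C57BL/6 background and backcrossed onto BALB/c, and none of the skin had been irradiated. Mice of both sexes were used, and the labels give neither the sex, the body site nor the mouse of a library, so that L and NL libraries cannot be matched by animal and p-values measure the spread between these libraries only. Lesions formed on the face, the back and at times the extremities, and per the methods NL skin was taken from the back and from sites like those of the lesions, but with no site given per library its part in the results was not tested. A second set of 12 libraries were made from inguinal lymph nodes, of both genotypes and with or without UVB.

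Melanocytes are pigment cells derived from the neural crest, and in mouse back skin nearly all of them sit in hair follicles, where they make melanin while the hair grows. Melanin is made inside melanosomes by tyrosinase (TYR) and its relatives TYRP1 and DCT, on fibrils formed by PMEL, while the membrane proteins encoded by *Slc45a2* and *Oca2* set the conditions that tyrosinase needs. MITF is the transcription factor that switches these genes on, KIT is the receptor through which melanocyte precursors migrate and survive, and MC1R is the receptor through which melanocortin raises and agouti lowers the making of black pigment. BALB/c mice are albino because their tyrosinase protein is inactive, so that these transcripts can be present in skin that makes no melanin.

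Total counts were 40499078 to 56511276 per skin library and 27599809 to 36428435 per lymph node library, and all libraries were labelled batch 1. Levels are given as CPM, the counts of a gene per 1000000 counts, after TMM scaling of the library sizes. A count of 0 in a skin library allows up to 3 counts, or 0.0541 to 0.0742 CPM, by counting error only. *Ifnk* was counted 0 times in all 3 WT libraries, 6 and 0 times in NL replicates 2 and 3, and 5 to 14 times in the L libraries (L against WT, adjusted p = 0.0191), so that it does not check the label of NL replicate 3. It passed the filter on low counts through the L libraries only, so that a difference was a condition of this test. The epidermal markers on a list of 10, among them *Krt5* and *Krt14*, were detected in every group. L replicate 7 stood apart from the other L libraries in the pigment genes, and results are given with and without it. In bulk skin, fewer cells of a type and less RNA per cell cannot be told apart, for these genes and for every cell type marker below.

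The promoter sequence was examined because MITF binds a short element, CATGTG, whose longer form TCATGTG is a hallmark of pigment cell promoters. RefSeq promoters (GRCm38.p6) were at hand for 7 of the 10 genes, *Tyr*, *Tyrp1*, *Dct*, *Oca2*, *Mitf*, *Kit* and *Mc1r*. Pmel, Mlana and Slc45a2 were not matched. In the 250 bases before the start site, read on both strands, TCATGTG or its reverse complement CACATGA was present in 4 genes, *Tyr*, *Tyrp1*, *Dct* and *Mc1r*, against 3.25% of all 32851 promoters of this length. The shorter CATGTG, which is part of TCATGTG, was present in the same 4 genes and in *Oca2*, against 12.3% of all promoters. The related CACGTG was found in none of the 7 genes, against 6.02% of all promoters. No match says only that these letters are not in the window, and a match is not evidence of binding. The sequences of the 4 genes with a match are shown 5′ to 3′ on the strand of the gene, with each TCATGTG or CACATGA in capitals; for *Tyrp1* only the 27 bases around the match are shown, because the 250 bases reach into the gene as GENCODE M21 annotates it, from 80834123.
Tyr (chr7:87493513-87493762, minus strand): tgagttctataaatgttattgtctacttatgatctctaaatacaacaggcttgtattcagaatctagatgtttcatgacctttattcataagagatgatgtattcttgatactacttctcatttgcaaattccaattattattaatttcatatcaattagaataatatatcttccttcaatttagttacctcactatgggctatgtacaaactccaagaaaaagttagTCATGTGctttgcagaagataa
Dct (chr14:118052247-118052496, minus strand): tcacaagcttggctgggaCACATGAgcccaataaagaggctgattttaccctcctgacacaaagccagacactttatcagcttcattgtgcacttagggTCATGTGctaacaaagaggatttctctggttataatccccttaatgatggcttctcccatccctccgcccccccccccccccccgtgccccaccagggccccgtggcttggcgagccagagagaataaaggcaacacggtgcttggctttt
Mc1r (chr8:123406832-123407081, plus strand): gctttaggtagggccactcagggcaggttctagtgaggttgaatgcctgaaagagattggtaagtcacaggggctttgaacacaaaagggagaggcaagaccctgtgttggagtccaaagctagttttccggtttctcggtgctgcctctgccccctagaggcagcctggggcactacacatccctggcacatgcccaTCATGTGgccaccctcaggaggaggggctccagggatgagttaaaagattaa
Tyrp1 (chr4:80834156-80834182, plus strand): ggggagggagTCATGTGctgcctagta
The match began 22 bases before the start site in *Tyr*, 47 bases before it in *Tyrp1* and 52 bases before it in *Mc1r*. *Dct* held a match 151 bases before the start site and another, on the opposite strand, 232 bases before it.

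The comparison of L with WT skin asked which genes differ between cutaneous lupus-like lesions and healthy skin. Transcripts of the pigment enzymes, the melanosome proteins, both transporters and *Mc1r* rose in L skin from levels that were low or at 0 in WT skin, and *Mitf* rose by less. In the edgeR quasi-likelihood test over 19101 genes, an adjusted p under 0.05 was the threshold, and 9 of the 10 genes were called higher in L skin, while *Kit* was not called. Among all genes tested, 23.0% were called higher and 20.2% lower in this comparison. The L and WT libraries did not overlap in 9 of the 10 genes, against 26.0% of all genes with every L library higher. The median log2 fold change of the 10 genes was 4.78, beside 0.06 over all genes tested. All 10 genes passed the filter on low counts, but *Slc45a2*, *Oca2* and *Mc1r* passed through the L libraries only, so that a difference in them was a condition of being tested.

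**Figure D1:**
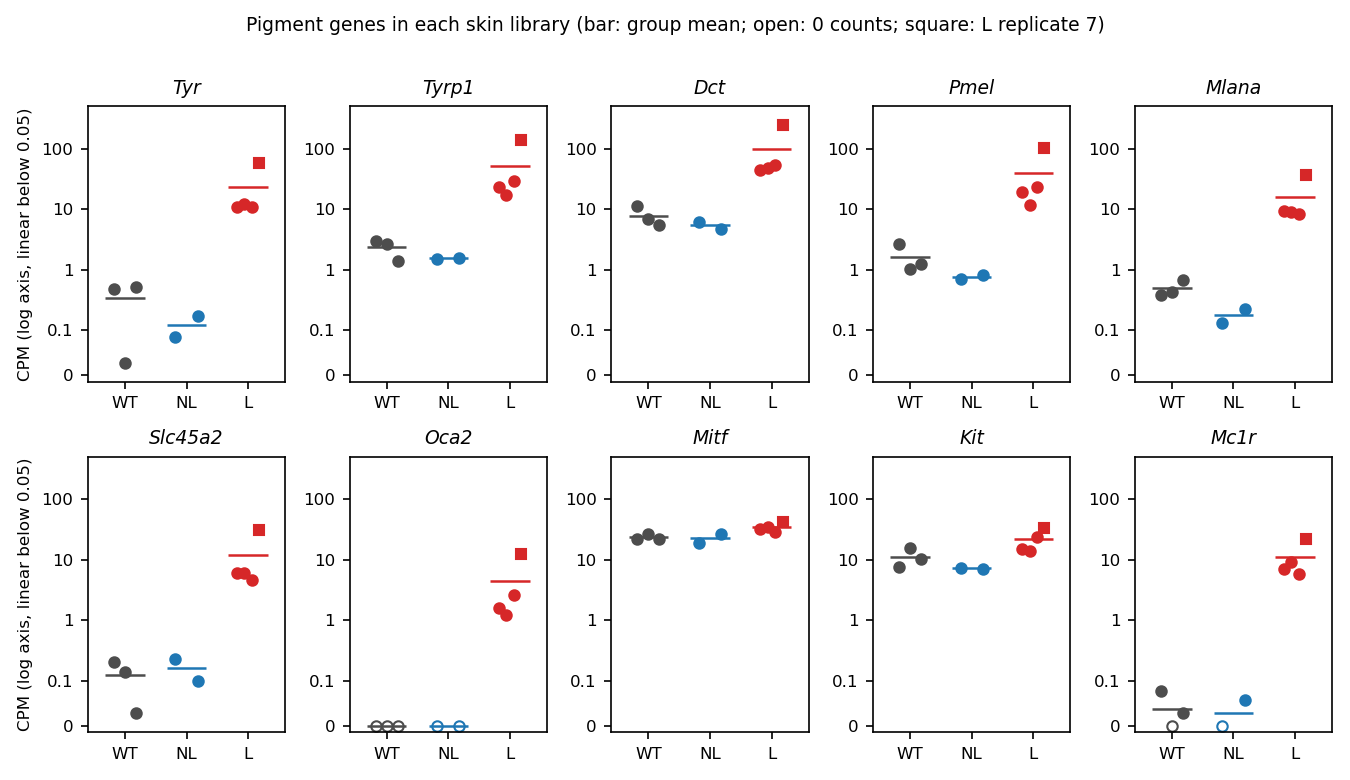
CPM of the 10 pigment genes in each WT, NL and L skin library, on an axis that is logarithmic above 0.05 CPM and linear below it, with a bar at each group mean, open symbols at 0 counts and a square for L replicate 7. The L libraries lay above all WT libraries in 9 genes, *Kit* overlapped, and the square was the highest L library in all 10 genes.

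The 3 enzymes rose together. *Tyr* (chromosome 7, 87424771 to 87493512, minus strand, GRCm38), which encodes the rate-limiting enzyme of melanin synthesis, was at 0.479, 0.0237 and 0.519 CPM in the WT libraries, 0.0765 and 0.172 CPM in the NL libraries, and 10.9, 12.3, 10.9 and 59.1 CPM in the L libraries. All 4 L libraries lay above all WT and NL libraries, and L replicate 7 lay far above the other L libraries. The log2 fold change of *Tyr* from WT to L was 6.09 (SE 1.06, adjusted p = 0.00288). *Dct* (chromosome 14, 118012790 to 118052244, minus strand), which encodes dopachrome tautomerase and is a marker of early melanoblasts, had the highest CPM of the enzymes in each group. It was at 11.1, 6.81 and 5.49 CPM in WT, 6.27 and 4.73 CPM in NL, and 45.2, 48.6, 54.2 and 249 CPM in L skin. The L libraries lay above all WT and NL libraries, and *Dct* was 12.7-fold higher in L than in WT skin (log2 fold change 3.67, SE 0.75, adjusted p = 0.00571).

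*Tyrp1* (chromosome 4, 80834123 to 80851719, plus strand), whose product acts in the later steps of black pigment synthesis, was at 3.01, 2.68 and 1.41 CPM in WT, 1.53 and 1.57 CPM in NL, and 23.4, 17.0, 29.2 and 141 CPM in L skin. The L libraries were again all above the others, and the log2 fold change from WT to L was 4.47 (SE 0.88, adjusted p = 0.00499). Unlike *Tyr*, both *Dct* and *Tyrp1* were counted at least 57 times in every WT and NL library.

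The structural genes of the melanosome followed. *Pmel* (chromosome 10, 128704195 to 128720238, plus strand), which encodes the fibril protein on which melanin is laid down, was at 2.67, 1.02 and 1.26 CPM in WT, 0.707 and 0.834 CPM in NL, and 18.9, 11.6, 23.0 and 103 CPM in L skin. The lowest L library was above the highest WT library, and the log2 fold change was 4.56 (SE 0.90, adjusted p = 0.00508). *Pmel* shares exon bases with *Cdk2* and *Dgka* on the opposite strand, and without a stated strand setting reads from these genes cannot be told apart there. Their log2 fold changes from WT to L were 0.91 for *Cdk2* (SE 0.19, adjusted p = 0.00556) and 0.59 for *Dgka* (SE 0.10, adjusted p = 0.00193). *Mlana* (chromosome 19, 29697824 to 29708634, plus strand), which encodes the melanosome protein MART-1, was at 0.388, 0.427 and 0.668 CPM in WT, 0.134 and 0.221 CPM in NL, and 9.23, 9.10, 8.24 and 37.1 CPM in L skin. L replicates 4, 5 and 6 lay close to each other for *Mlana*, and the log2 fold change was 5.01 (SE 0.71, adjusted p = 0.00105).

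Both transporter genes were near or below the counting floor outside lesions. *Slc45a2* (chromosome 15, 11000721 to 11029233, plus strand) was at 0.205, 0.142 and 0.0247 CPM in WT, 0.229 and 0.0981 CPM in NL, and 6.14, 6.02, 4.60 and 31.6 CPM in L skin. These WT and NL levels rest on 1 to 12 counts per library, whereas the L libraries held 209 to 1755 counts, and the log2 fold change from WT was 6.56 (SE 1.05, adjusted p = 0.00183). *Oca2* (chromosome 7, 56239760 to 56536518, plus strand), the gene of the pink-eyed dilution locus, was counted 0 times in all WT and NL libraries. In L skin it was at 1.60, 1.23, 2.58 and 12.3 CPM. Against a floor of 3 counts per library, the L mean of *Oca2* was at least 62.0-fold higher than WT skin and at least 67.5-fold higher than NL skin (edgeR adjusted p = 0.0114 and 0.0325). These bounds cover counting error in WT and NL skin only, not the spread between L libraries. The bounds were 25.3-fold and 27.6-fold without L replicate 7.

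*Mitf* (chromosome 6, 97807052 to 98021349, plus strand), which is also expressed in mast cells, macrophages and other cells, differed far less between groups than the pigment genes it controls. It was at 21.9, 26.9 and 22.1 CPM in WT, 19.2 and 26.2 CPM in NL, and 32.3, 35.4, 29.3 and 41.3 CPM in L skin. The L libraries lay above all WT and NL libraries, and the log2 fold change from WT to L was 0.55 (SE 0.16, adjusted p = 0.0230). This call was lost without WT replicate 8 (adjusted p = 0.0795) or WT replicate 10 (adjusted p = 0.0813).

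The 2 receptor genes differed from each other. *Mc1r* (chromosome 8, 123407107 to 123410744, plus strand) held 3, 0 and 1 counts in the WT libraries and 0 and 2 counts in the NL libraries, whereas the L libraries were at 7.14, 9.08, 5.77 and 21.9 CPM. Over pooled counts, *Mc1r* was 360.2-fold higher in L than in WT skin, with an exact 95% interval of 140.5 to 1323 that covers counting error only (adjusted p = 0.000361 in the edgeR test). Without L replicate 7 this ratio was 229-fold (89.3 to 843). *Kit* (chromosome 5, 75574916 to 75656722, plus strand), which mast cells also express, was at 7.73, 15.6 and 10.1 CPM in WT, 7.42 and 7.11 CPM in NL, and 15.2, 14.1, 23.9 and 33.3 CPM in L skin. WT replicate 9 lay above L replicates 4 and 5, and the log2 fold change of *Kit* from WT to L of 0.96 was not called (SE 0.35, adjusted p = 0.0520). DESeq2 called it (adjusted p = 0.0216), as did edgeR without WT replicate 9 (adjusted p = 0.0351), L replicate 4 (adjusted p = 0.0373) or L replicate 5 (adjusted p = 0.0289).

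**Figure D2:**
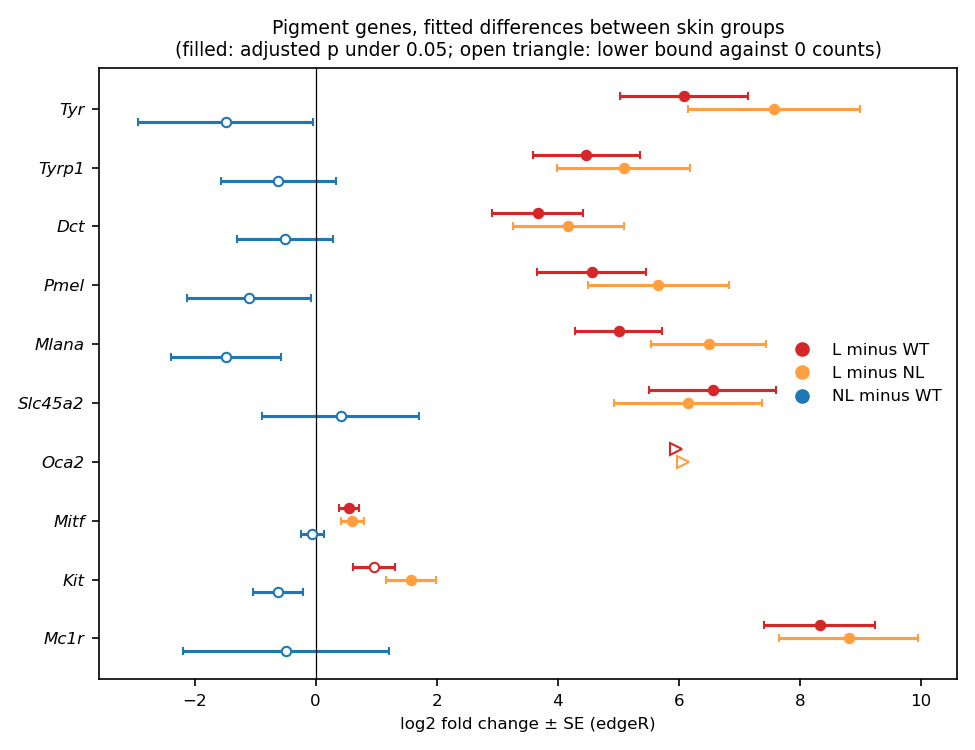
Fitted log2 fold changes with standard errors for the 10 pigment genes in 3 comparisons, L minus WT, L minus NL and NL minus WT, with filled circles at an adjusted p under 0.05 and triangles for *Oca2* at its lower bound against 0 counts. The L comparisons lay between 0.55 for *Mitf* and 8.81 for *Mc1r*, and no NL minus WT value was called.

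The comparison of L with NL skin asked what separates a lesion from skin of the same genotype without a visible lesion, and it shares the L libraries with the comparison above. All 10 genes were called higher in L than in NL skin and all 10 had no overlap between libraries. The background was 13.2% of all genes called higher, 11.8% called lower and 24.7% with every L library above both NL libraries. The log2 fold changes were 7.57 for *Tyr* (SE 1.42), 5.09 for *Tyrp1* (SE 1.10), 4.17 for *Dct* (SE 0.92), 5.66 for *Pmel* (SE 1.16), 6.49 for *Mlana* (SE 0.95) and 6.15 for *Slc45a2* (SE 1.22). The smallest were again those of *Mitf*, at 0.61 (SE 0.18, adjusted p = 0.0413), and *Kit*, at 1.58 (SE 0.41, adjusted p = 0.0259). For *Mc1r* the pooled ratio was 531-fold (exact 95% interval 147 to 4384), or 338-fold (93.3 to 2793) without L replicate 7. The median log2 fold change of the 10 genes was 5.91, or 5.87 with *Oca2* at its bound, beside 0.03 over all genes tested. These calls depend on both NL libraries: without NL replicate 2, and likewise without NL replicate 3, only 2 of the 10 genes were called, *Mlana* and *Mc1r*, although no log2 fold change turned in sign. *Mitf* was also not called against NL skin without any 1 of WT replicates 8, 9 and 10 or L replicates 5 and 7 (adjusted p = 0.0519 to 0.0630), nor *Oca2* without L replicate 6 (adjusted p = 0.0567).

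The comparison of NL with WT skin asked whether *Ifnk* TG skin outside lesions differs from WT skin. None of the 10 genes was called, at adjusted p of 0.728 or above, and edgeR called 0 of all 19101 genes (0%), while 1465 genes had an unadjusted p under 0.05 and DESeq2 called 80 genes, none of them a pigment gene. The fitted log2 fold change was below 0 in 8 of the 10 genes, with the lowest values for *Mlana*, at -1.49 (SE 0.91), and *Tyr*, at -1.48 (SE 1.45). Both NL libraries lay below all WT libraries for 3 genes, *Pmel*, *Mlana* and *Kit*, whereas 16.3% of all genes had this pattern. *Slc45a2* was at 0.41 (SE 1.3) and *Mitf* at -0.06 (SE 0.19). With 2 NL libraries the SE reached 1.70 for *Mc1r*, and smaller differences in such low genes were not detectable.

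Levels of different genes were compared per kilobase of annotated exon. In WT skin the order was led by *Mitf*, at 3.82 ± 0.46 CPM per kilobase (SD, n = 3), followed by *Dct* at 1.33 ± 0.50, *Kit* at 1.25 ± 0.45, *Tyrp1* at 0.837 ± 0.30, *Pmel* at 0.720 ± 0.39 and *Mlana* at 0.468 ± 0.14. From *Dct* to *Mlana*, neighbours in this order lay within their spread of each other, and *Tyr*, *Slc45a2*, *Mc1r* and *Oca2* were each below 0.05. In L skin the order was *Tyrp1* at 18.6 ± 20.9 CPM per kilobase (SD, n = 4), *Pmel* at 17.0 ± 18.6, *Dct* at 16.8 ± 16.9 and *Mlana* at 15.1 ± 13.3, which did not differ beyond their spread. *Mitf*, at 5.58 ± 0.83, came next, ahead of *Slc45a2* at 4.05 ± 4.37, *Tyr* at 3.28 ± 3.36, *Mc1r* at 3.02 ± 2.04, *Kit* at 2.43 ± 1.00 and *Oca2* at 1.11 ± 1.33. Thus by group mean *Mitf* was the highest of the 10 genes per length in WT and NL skin and was passed by 4 melanosome genes in L skin. This did not hold in every L library: in L replicate 5 *Pmel*, at 5.07 CPM per kilobase, lay below *Mitf*, at 5.72. The L levels and part of their order rest on L replicate 7. Without it *Mlana* was at 8.38 ± 0.51, *Dct* at 8.37 ± 0.77, *Tyrp1* at 8.20 ± 2.17 and *Pmel* at 7.78 ± 2.51 CPM per kilobase (SD, n = 3), still ahead of *Mitf* at 5.22 ± 0.50. The genes after *Mitf* were then *Mc1r* at 2.01 ± 0.46, *Kit* at 1.99 ± 0.60, *Slc45a2* at 1.87 ± 0.29, *Tyr* at 1.60 ± 0.11 and *Oca2* at 0.456 ± 0.18, of which the first 4 lay close together.

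The proportions among the pigment genes also differed between groups, which is given as a description with no test. Relative to *Dct* in the same library, per length, *Tyr* was at 16.7 to 20.9% in the L libraries, compared with 0.289 to 7.85% in WT and 1.01 to 3.01% in NL libraries. *Mlana* was at 83.1 to 114% of *Dct* in L, 19.4 to 67.8% in WT and 11.9 to 26.0% in NL libraries. *Slc45a2* was at 16.8 to 26.8% in L and 0.890 to 4.13% in WT libraries, and *Mc1r* at 14.3 to 30.3% in L and at most 0.996% in WT libraries. *Pmel* touched the WT range, at 61.5 to 109% in L and 38.5 to 61.7% in WT libraries, and so did *Tyrp1*, at 72.8 to 118% and 53.5 to 82.1%. *Mitf* and *Kit* went the other way, from 187 to 383% and 46.0 to 151% of *Dct* in WT to 15.8 to 69.4% and 8.85 to 29.2% in L libraries.

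L replicate 7 had the highest CPM of the 4 L libraries in all 10 genes. Its CPM was 4.18 to 6.79 times the mean of the other 3 L libraries in the 7 melanosome genes, with the lowest ratio for *Mlana* and the highest for *Oca2*. The ratio was 2.99 for *Mc1r*, 1.87 for *Kit* and 1.28 for *Mitf*. Without this library 9 of the 10 genes were still called higher in L than in WT skin, with a median log2 fold change of 3.80, and the log2 fold changes fell to 5.05 for *Tyr*, 3.29 for *Tyrp1*, 2.66 for *Dct*, 3.43 for *Pmel*, 4.16 for *Mlana* and 5.45 for *Slc45a2*. Against NL skin 9 of the 10 were called without it, and *Mitf* was not (adjusted p = 0.0628). The background without this library was 23.1% of 18851 genes called higher against WT and 13.4% against NL skin.

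**Figure D3:**
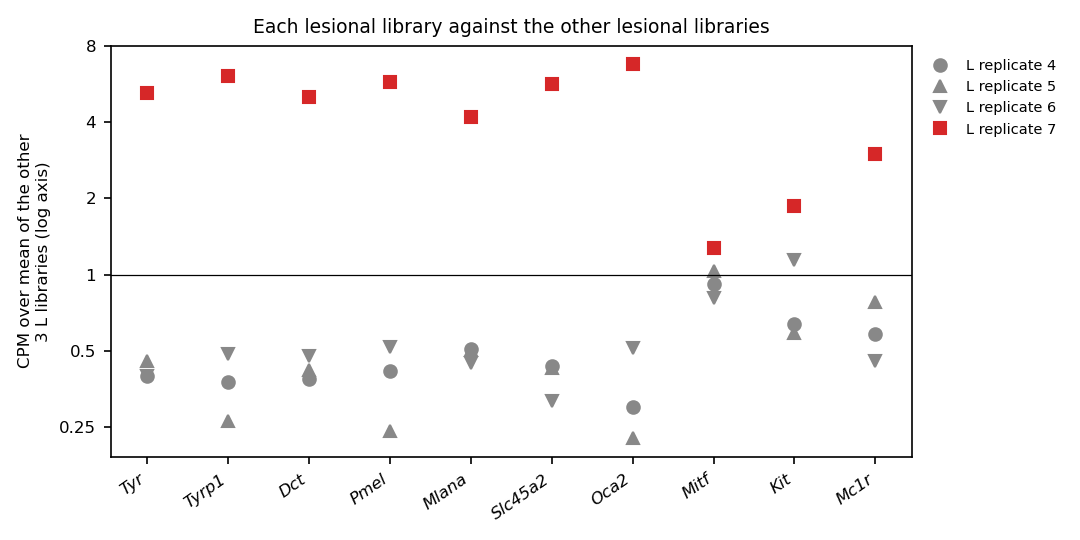
CPM of each L library divided by the mean of the other 3 L libraries, on a log axis, for the 10 pigment genes. L replicate 7, drawn as squares, lay between 4.18 and 6.79 in the 7 melanosome genes and came nearer to the others in *Mitf*, *Kit* and *Mc1r*.

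Markers of other cell types moved with the same groups, and their part in the pigment gene result was not tested. Of the 19 measured markers of the growing hair follicle, such as hair keratins and *Shh*, 19 were called higher in L than in WT skin, and their summed level was 13.9 to 18.2 CPM in WT, 24.3 to 34.2 CPM in NL and 6305, 14425, 16252 and 21950 CPM in L replicates 4, 5, 6 and 7. The hair follicle markers as a sum, and each of the pigment genes, were highest in L replicate 7. Some single hair follicle markers, among them *Crisp1* and *Krt34*, were not highest there. L replicate 4 was the lowest L library in summed hair follicle markers. It was below L replicates 5 and 6 in 2 of the 10 pigment genes (*Tyr* and *Dct*), above both in 2 (*Mlana* and *Slc45a2*) and between them in 6. Without L replicate 7 the 19 hair follicle markers were still called higher. The share of all genes called higher against WT skin was 23.0%, or 23.1% without L replicate 7. Some of the 19, such as *Krt34* and *Shh*, were near 0 outside L skin and passed the filter on low counts through the L libraries only. For them a difference was a condition of being tested. The 10 epidermal markers were in sum lowest in L replicate 7, at 9082 CPM. The other L libraries were at 19583 to 26821 CPM and WT skin at 9604 to 11904 CPM. Of the 10 epidermal markers, 5 were called higher and none lower in L against WT skin, and 9 were called higher without L replicate 7.

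*Kit* and *Mitf* are also used by mast cells, and *Mitf* by macrophages. These lists are read against the 23.0% of all genes called higher and 20.2% called lower in L against WT skin. Of 12 mast cell markers, 1 was called higher and 2 lower in L against WT skin (2 and 2 without L replicate 7), with summed levels of 181 to 339 CPM in WT, 186 to 195 CPM in NL and 138 to 297 CPM in L skin. Of 10 macrophage markers, 0 were called higher and 1 lower, with summed levels of 565 to 1530 CPM in WT, 525 to 756 CPM in NL and 293 to 926 CPM in L skin. Schwann cells, which share a neural crest origin and *Sox10* with melanocytes, had 2 of 9 tested markers called higher and 2 lower, close to these shares of all genes, with 10 markers summing to 200 to 232 CPM in WT, 262 to 263 CPM in NL and 184 to 230 CPM in L skin.

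Other tissue layers and immune cells differed as well, in a comparison that called 23.0% of all genes higher and 20.2% lower. The 10 skeletal muscle markers summed to 27922 to 39092 CPM in WT, 26436 to 30736 CPM in NL and 24.6 to 7290 CPM in L skin, with 5 called lower (0 without L replicate 7), and the 8 adipocyte markers to 8919 to 13119, 7308 to 8436 and 1032 to 4654 CPM, with 4 called lower (5 without L replicate 7). Of 8 T cell markers 5 were called higher (6 without L replicate 7), with sums of 28.2 to 40.1 CPM in WT, 36.8 to 48.1 CPM in NL and 33.8 to 79.5 CPM in L skin, lowest among L libraries in L replicate 7. Of 14 interferon response genes 5 were called higher (6 without L replicate 7), with sums of 210.0 to 307 CPM in WT, 184 to 254 CPM in NL and 339 to 1278 CPM in L skin, again lowest among L libraries in L replicate 7. No marker on any of these lists was at 0 in all skin libraries. Leaving the muscle, fat, hair and keratin genes out of the library scaling changed no call among the pigment genes.

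The 6 further melanocyte markers all recur in the lists that follow, *Gpr143*, *Slc24a5* and *Trpm1* among melanosome genes and *Sox10*, *Pax3* and *Ednrb* among lineage regulators, so that their calls are counted again there. Against 23.0% of all genes called higher, 4 of these 6 were called higher in L than in WT skin (3 without L replicate 7). None of the 6 was called lower, against 20.2% of all genes. The summed level of these 6 was 37.5 to 102 CPM in WT, 39.2 to 62.1 CPM in NL and 56.9 to 211 CPM in L skin. In WT and NL skin this sum came mostly from *Ednrb*. *Sox10*, a transcription factor of neural crest cells that acts upstream of *Mitf*, was at 1.19, 1.21 and 1.14 CPM in WT, 1.62 and 0.809 CPM in NL, and 0.674, 3.28, 1.01 and 4.74 CPM in L skin. L replicates 4 and 6 lay below all WT libraries, and the log2 fold change of 1.04 was not called (SE 0.65, adjusted p = 0.226). *Pax3*, which acts beside SOX10, averaged 0.598 ± 0.20 CPM in WT (SD, n = 3) and 1.72 ± 0.75 CPM in L libraries (SD, n = 4), with a log2 fold change of 1.52 (SE 0.50, adjusted p = 0.0348) that was lost without L replicate 7. *Ednrb*, the endothelin receptor of melanoblasts that other skin cells also express, averaged 69.6 ± 32.2 CPM in WT and 55.3 ± 23.8 CPM in L libraries and was not called (adjusted p = 0.581).

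Many proteins of melanosomes also serve lysosomes and related organelles of other cells. Of 30 further genes of melanosomes and pigment granules, 9 were called higher, 3 lower and 18 were not called in L against WT skin (9, 1 and 20 without L replicate 7), with a median log2 fold change of 0.18 beside 0.06 over all genes tested. Against NL skin, 8 of the 30 were called higher and 2 lower. The shares of all genes were 23.0% higher and 20.2% lower against WT skin, and 13.2% and 11.8% against NL skin. The 3 largest increases were those of genes known from pigment cells. *Gpr143*, which encodes a melanosome receptor, held 1 count over the WT libraries, 0 in the NL libraries and 35 to 252 counts in the L libraries, and its pooled ratio to WT was 231-fold (exact 95% interval 41.2 to 9154, counting error only). *Slc24a5*, which encodes a melanosome cation exchanger, was at 0.182 ± 0.056 CPM (SD, n = 3) in WT and rose to 14.5 ± 14.0 CPM (SD, n = 4) in L libraries, with a log2 fold change of 6.29 (SE 0.88, adjusted p = 0.000969). *Trpm1*, a channel gene that MITF activates, was at 0.50 ± 0.21 CPM in WT libraries and rose to 33.0 ± 33.1 CPM in lesions, with a log2 fold change of 6.04 (SE 0.87, adjusted p = 0.00127). All 3 were highest in L replicate 7, at 4.72 to 5.87 times the mean of the other L libraries. *Gpr143* and *Slc24a5* passed the filter through the L libraries only, so that a difference in them was a condition of being tested. The genes called lower were *Hps5*, *Rab32* and *Dtnbp1*, which act in the trafficking of cargo to lysosome-related organelles, at -0.42, -0.37 and -0.34.

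Of 10 regulators of the melanocyte lineage, 4 were called higher, 1 lower and 5 were not called in L against WT skin (3, 1 and 6 without L replicate 7). The shares of all genes were 23.0% higher and 20.2% lower. *Lef1*, a Wnt effector that was also on the hair follicle list, was at 0.161 ± 0.090 CPM in WT libraries and rose to 21.4 ± 16.2 CPM in lesions, with a log2 fold change of 7.05 (SE 0.87, adjusted p = 0.000589). *Tfap2a*, which is active in both keratinocytes and neural crest cells, rose by 1.52 (SE 0.15, adjusted p = 0.000187). *Zeb2*, a zinc finger gene of neural crest and immune cells, was the one called lower, at -0.94 (SE 0.20, adjusted p = 0.00622).

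Of 13 tested ligands and modulators of pigmentation, 5 were called higher and 2 lower (5 and 3 without L replicate 7). Among all genes, 23.0% were called higher and 20.2% lower. *Asip*, listed under its older symbol *a* and encoding the agouti protein by which dermal papilla cells act against MC1R, was counted 0 times in all WT libraries, 6 and 0 times in the NL libraries, and 178, 65, 45 and 75 times in L replicates 4, 5, 6 and 7. Its L mean was at least 25.2-fold higher than WT skin (edgeR adjusted p = 0.00210), a bound that covers counting error in WT skin only. L replicate 7, the highest for the pigment genes, was not the highest here. Like *Corin*, *Asip* passed the filter through the L libraries only, so that a difference was a condition of being tested. *Corin*, a protease gene of the dermal papilla that limits agouti action, rose from 0.174 ± 0.089 CPM in WT to 4.26 ± 2.29 CPM in L skin (log2 fold change 4.59, SE 0.59, adjusted p = 0.000551), and *Nrg1*, a neuregulin ligand gene, rose by 2.80 (SE 0.46, adjusted p = 0.00166). *Fgf2*, a growth factor gene for melanocytes, and *Mgrn1*, which dampens melanocortin receptor signalling, fell by 1.73 (SE 0.33) and 0.86 (SE 0.14) on the log2 scale. *Kitl*, the ligand of KIT, was at 66.8 ± 7.63 CPM in WT, 49.6 ± 0.97 CPM in NL and 60.4 ± 30.7 CPM in L skin and was not called (adjusted p = 0.742). *Pomc*, the precursor gene of the melanocortins that activate MC1R, had 2 to 15 counts per library and did not pass the filter.

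**Figure D4:**
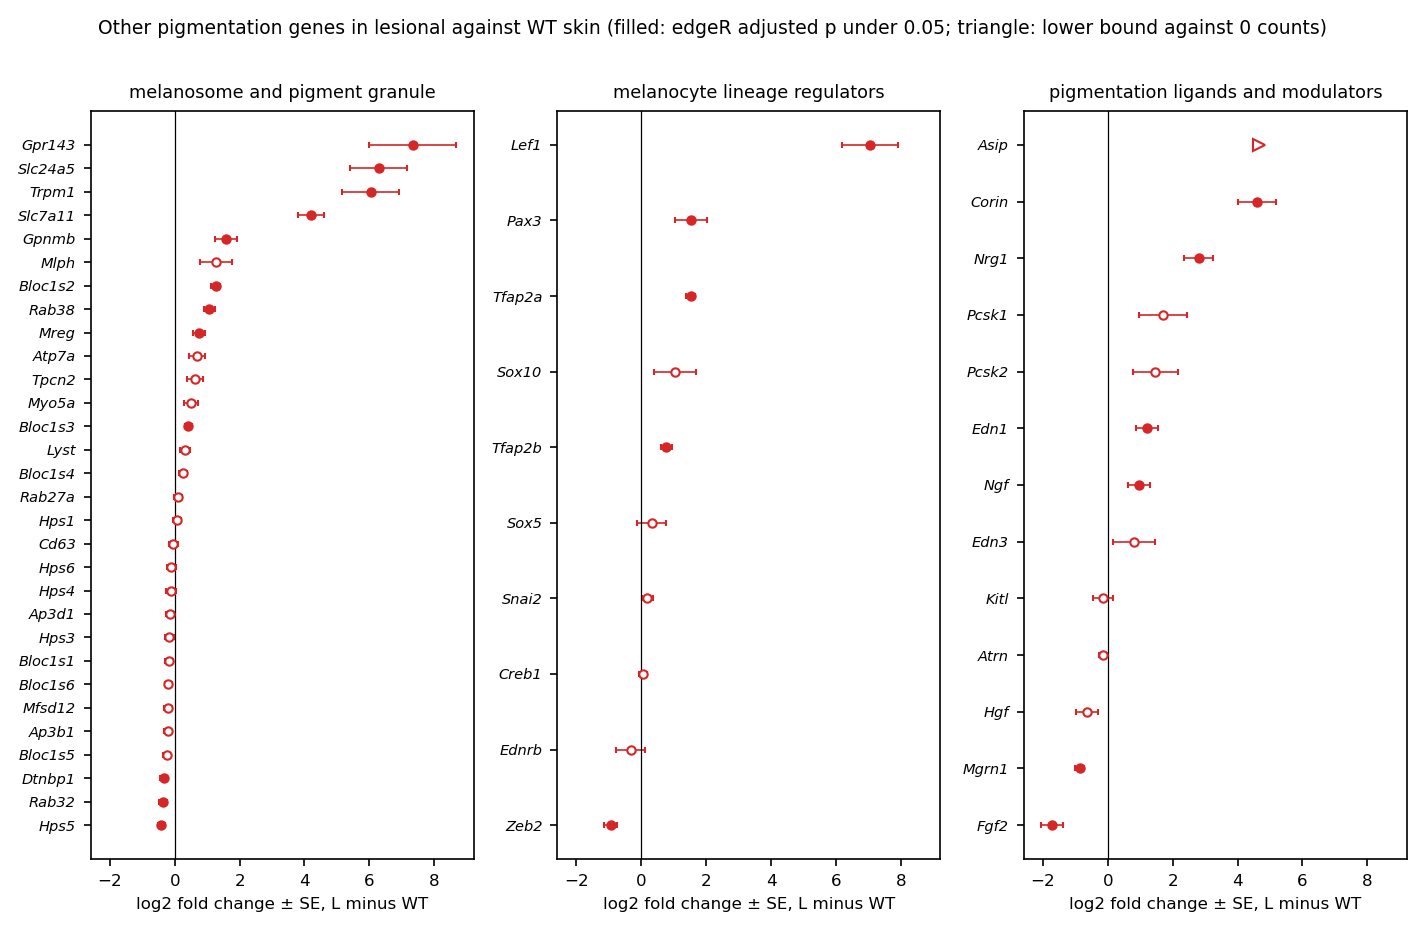
Log2 fold changes with standard errors from WT to L skin for 30 melanosome, 10 lineage and 13 ligand genes, sorted within each list, with filled circles at an adjusted p under 0.05 and a triangle for *Asip* at its lower bound. The pigment cell genes *Gpr143*, *Slc24a5* and *Trpm1* stood at 6.04 to 7.34, whereas 18 of the 30 melanosome genes were not called.

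The genes whose pattern over the 9 skin libraries was nearest to the mean of the 7 melanosome genes were ranked by the root-mean-square difference of centred log2 CPM. The nearest 5 were *Slc24a4* (0.354), *Gpr143* (0.393), the keratin gene *Krt90* (0.455), *Trpm1* (0.472) and the proteoglycan gene *Acan* (0.572), beside a median of 2.63 over all genes tested. All of them but *Trpm1* passed the filter on low counts through the L libraries only. So did *Slc45a2* and *Oca2*, which are part of the mean, and *Mc1r*. For these genes a difference between L and other skin was a condition of being ranked, so that their likeness is partly fixed in advance. Of the genes that were not part of this mean, *Mc1r* stood at 1.15, *Kit* at 2.03 and *Mitf* at 2.33. Without L replicate 7, these 5 genes stood at ranks 6, 7, 5, 23 and 31, so that the order rests in part on that library.

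In inguinal lymph nodes 5 of the 10 genes were at 0, and 3 were counted in every library. *Tyrp1*, *Dct*, *Mlana*, *Slc45a2* and *Oca2* were counted 0 times in all 12 node libraries, where 0 counts allow up to 0.0811 to 0.109 CPM, and *Mc1r* had at most 3 counts. *Pmel* had 12 to 31 counts per node library, with a median of 0.601 CPM. As in skin, reads from *Cdk2* and *Dgka* cannot be told apart from those of *Pmel* where their exons overlap. *Mitf* and *Kit*, whose use is not confined to pigment cells, were at 3.93 to 5.08 CPM and 4.99 to 8.59 CPM in the nodes, and this range of *Kit* takes in both NL skin libraries, although the tables were scaled separately. *Tyr* was at 0 to 1 count in 9 of the node libraries and at 4 to 9 counts in the 3 libraries of unirradiated *Ifnk* TG nodes.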

How the data were processed

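RNA was measured by bulk, poly-A, paired-end sequencing of 9 skin and 12 lymph node libraries. The authors aligned reads to GRCm38 with STAR 2.7.8a and deposited expected counts per gene from RSEM 1.3.3; the submitters' processing notes also name cutadapt 4.8, FastQC 0.11.8 and MultiQC 1.20. All deposited values were whole numbers. Strand setting and annotation release are not given in the sources used here. 4 reporter rows (0 counts in every skin library, a 0% share) were left out.

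Skin counts were fitted in edgeR 4.0.16 (R 4.3.3; quasi-likelihood test, robust, TMM, filterByExpr with a minimum count of 10), with all 9 libraries in 1 fit by group and Benjamini-Hochberg adjustment over 19101 genes at 0.05. Coordinates and exon lengths are from GENCODE M21 (GRCm38). On data simulated for L against WT with 18600 genes, 82% of 4-fold and 44% of 2-fold changes were recovered, and 2.33% of calls were false. The simulation changed 100 genes at each fold, all of them well counted, whereas 8237 genes were called in the data. Its shares do not cover genes near 0 counts in WT skin. Alternatives were DESeq2 1.42.0, other scalings and filters, 2-group fits and leaving out each library. Node tables were scaled separately and are given as levels only.

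The 10 genes and all gene lists were chosen with earlier results of these data known. Besides the 10 genes, the text names the 3 largest called increases and decreases in each pathway list, *Sox10*, *Pax3*, *Ednrb*, *Kitl*, *Asip* and *Pomc*, and the 5 genes nearest in pattern; *Ifnk*, *Cdk2* and *Dgka* are named as checks outside this rule. *Krt85* was not analysed here.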

Additional observations from a re-analysis of the deposited data

Results flagged for a closer look

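In L skin, 1 library, L replicate 7, was far from the other 3 in 7 of the 10 pigment genes, which were *Tyr*, *Tyrp1*, *Dct*, *Pmel*, *Mlana*, *Slc45a2* and *Oca2*. Its gap to the next library, divided by the range of the 4 L libraries, was 0.972 for *Tyr*, 0.901 for *Tyrp1*, 0.956 for *Dct*, 0.875 for *Pmel*, 0.966 for *Mlana*, 0.943 for *Slc45a2* and 0.878 for *Oca2*, above Dixon's 95% critical value for 4 samples. The ratio was 0.795 for *Mc1r* and 0.489 for both *Mitf* and *Kit*, below that value. Chance alone marks about 1 in 20 such groups if values are normally distributed. The ratios were taken on CPM without a log, and whether that rate holds for them was not tested. The 7 genes share the library, so that they are not 7 independent events. The summed growing hair follicle markers were also highest in this library. The summed epidermal, T cell and interferon response genes were lowest there among the L libraries. The part of these gene lists in the pigment gene levels was not tested.

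*Tyr* was counted 22 times over the 3 libraries of unirradiated *Ifnk* TG lymph nodes, compared with 1 count over the 3 libraries of unirradiated WT nodes. The node libraries were outside the comparisons made here, and the difference was not tested.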

How the results depend on the processing

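No paired analysis was possible because the labels do not give the mouse of a library. Wherever they were tested, the 10 genes kept the direction of their L against WT and L against NL differences under all 8 alternatives with every library and all 9 with 1 library left out. With at least 10 counts required in every library, only 5 of the 10 genes were tested, of which 4 were called against WT and 5 against NL. Over the fits that left out 1 library, 2 to 10 pigment genes and 1182 to 5187 genes in all were called in L against NL, with the lowest numbers without an NL library, which leaves 1 NL library that is assumed to vary like the other groups. With only the compared groups in the fit, 3156 genes were called in L against NL and 1 in NL against WT, beside 4782 and 0 in the fit of all groups, and DESeq2 called 80 in NL against WT. In L against NL, *Mitf* was not called with only the compared groups in the fit (adjusted p = 0.0841), nor *Oca2* with no filter on low counts (adjusted p = 0.0856) or without L replicate 6 (adjusted p = 0.0567); *Mitf* was called in only 2 of the 9 fits with a library left out. In NL against WT, log2 fold changes changed sign when 1 library was left out, with *Mc1r* at -3.69 to 0.73, *Mitf* at -0.33 to 0.15 and *Slc45a2* at -0.35 to 0.97. The causes were not tested. Low counts in WT and NL skin limit what can be said of *Tyr*, *Slc45a2*, *Oca2* and *Mc1r* there. The gene list counts, the levels per kilobase, the *Oca2* bounds, the *Mc1r* ratios and the likeness order without L replicate 7 were alternatives chosen after seeing the data.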
